A study of Mus musculus with 30 samples.

Results

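The comparison described here is Mettl3KO against WT in sorted MPP2, a multipotent progenitor population of mouse bone marrow. Its members are the 6 libraries whose labels name MPP2, 3 of each genotype, among 30 samples in all. MPP2 cells were sorted as Lin-;Sca1+;c-Kit+;CD150+;CD48+. WT mice carried Mettl3 fl/fl, and Mettl3KO mice carried Mx1-Cre; Mettl3 fl/fl. Both groups received pIpC, a synthetic double-stranded RNA that induces interferon, and were sampled 3 weeks later, with each replicate from a different mouse. Mx1-Cre acts in any cell that responds to interferon, so loss of Mettl3 was not limited to MPP2, and the WT genotype names no Cre. The age of the mice is not given in the sources used here. The series also holds HSC (stem cells), MPP1 and MPP4 sorted from the same kinds of mice, and 10x single-cell libraries of LK cells, the wider Lin-;c-Kit+ compartment.

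MPP2 is the multipotent progenitor closest to the megakaryocyte and erythroid lineages, whereas MPP4 leans toward lymphoid fates and expresses Flt3. METTL3 carries the methyltransferase activity of a nuclear complex that places N6-methyladenosine (m6A) on messenger RNA. The mark lies mostly in long internal exons and near stop codons, in sequences such as GGACU, and it is read by YTH-domain proteins that affect splicing, export and decay of the RNA.

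The 6 MPP2 libraries held 28896498 to 46177912 counts. The sort genes matched the labels: Cd48 (CD48) was at 136 to 249 counts scaled to a library of 1e6 (CPM) in the MPP2 libraries and at 5.58 to 13.5 CPM in the 6 HSC libraries. Slamf1 (CD150) was at 5.002 to 44.6 CPM in MPP2 and at 0.56 to 3.82 CPM in MPP4. Within MPP2, Slamf1 was at 7.07, 5.002 and 16.7 CPM in WT and at 20.7, 32.7 and 44.6 CPM in Mettl3KO, groups that did not overlap, as was so for 26.6% of all genes tested. The log2 fold change was 1.77 ± 0.51 (SE), and the gene did not pass the test (adjusted p = 0.071). Markers of macrophages, which the gate should exclude, summed to 10328, 1709 and 532 CPM in WT replicates 1, 2 and 3 and to 653, 1030 and 415 CPM in Mettl3KO. No member of that list was at 0 in all libraries of a group. WT replicate 1 therefore stood apart, and results without it are given where they differ. Neutrophil genes summed highest in WT replicate 3 (1796 CPM, against 77.8 to 904 CPM elsewhere). The ribosomal RNA gene Rn45s took 5.50% of the counts in Mettl3KO replicate 2 and 1.73% to 2.87% in the others.

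The targeted gene fell. Mettl3 (GRCm38 14:52294841-52305128, minus strand, 11 exons) was at 29.6, 34.3 and 33.7 CPM in WT and at 12.9, 16.4 and 16.95 CPM in Mettl3KO. The lowest WT library lay above the highest Mettl3KO library, with log2 fold change -1.08 ± 0.18 and adjusted p = 0.0031 by edgeR's quasi-likelihood test, which is the test throughout. The counts cover the whole gene, so RNA that lacks only the deleted part would still be counted. In bulk RNA, fewer cells of a type and less RNA per cell cannot be told apart.

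In Mettl3KO MPP2 the adhesion genes Selp, Esam and Itga6, the lineage regulators Zfpm1, Nfe2 and Tal1 and the p53 targets Cdkn1a and Phlda3 were higher, and Hlf, Cd34 and Flt3 were lower, as described by group below. Other adhesion genes, Emcn and Cd44, were lower, and the p53 targets named are 2 of 27 tested. Tal1, Cd34 and Cdkn1a lost their calls in 4 or 5 of the 6 library omissions. Of 15545 genes tested, 384 (2.47%) changed at an adjusted p under 0.05, 234 upward (1.51%) and 150 downward (0.965%). At an unadjusted p under 0.05 there were 2505. Of the 384, 249 moved at least 2-fold. DESeq2, which differs from edgeR in scaling, filter and test, called 1039 genes, 510 upward and 529 downward. Upper quartile scaling within edgeR called 371, and the part of each step in the DESeq2 count was not tested. Leaving out WT replicate 1, 2 or 3 left 145, 167 or 154 changed genes, and leaving out Mettl3KO replicate 1, 2 or 3 left 109, 216 or 220.

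The smallest p-values belonged to genes that separated cleanly between the genotypes. Gpr171, a G protein-coupled receptor, was at 111, 122 and 108 CPM in WT and at 27.1, 34.9 and 25.3 CPM in Mettl3KO (-1.97 ± 0.18 in log2 units, adjusted p = 1.4e-05). Serpina3g, an intracellular serine protease inhibitor, rose from 176, 168 and 215 CPM to 747, 562 and 851 CPM (1.95 ± 0.21, adjusted p = 5.7e-05). Rcn3, a calcium-binding protein of the endoplasmic reticulum, fell with log2 fold change -1.77 ± 0.21, and Cd81, a tetraspanin, with -1.10 ± 0.17. Stxbp4, a syntaxin-binding protein, fell with -1.92 ± 0.27. Fam212a (2.05 ± 0.26), the solute carrier family member Mfsd5 (1.42 ± 0.18) and the zinc finger gene Zfp948 (2.69 ± 0.33) rose. All of these kept their calls under each of the 14 alternatives tried, library omissions included.

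Several large rises started from near silence. C2cd4b had 2 counts over the WT libraries and 1774 over Mettl3KO, a 1166-fold ratio of CPM (95% exact interval 322 to 9632, counting error alone), and adjusted p = 0.0027. Dlg5, a scaffold protein of cell junctions, was at 0, 0 and 0.0947 CPM in WT and at 4.45, 5.48 and 8.31 CPM in Mettl3KO (adjusted p = 0.0085). Grrp1 was at 0.371, 0.644 and 0.166 CPM in WT and at 13.8, 11.5 and 7.14 CPM in Mettl3KO (4.76 ± 0.59 in log2 units, adjusted p = 1.9e-04). Mdk, the growth factor midkine, was at 1.205, 6.46 and 2.65 CPM in WT and at 33.5, 25.1 and 31.0 CPM in Mettl3KO (3.11 ± 0.47). The secreted phospholipase gene Pla2g2d rose with 4.79 ± 1.27 (adjusted p = 0.048) and lost the call without any library other than WT replicate 1. Among the other large rises, Spef1 had 3.51 ± 0.68, Pak6 3.54 ± 0.93, Aif1l 2.63 ± 0.66 and Tnfaip8l1 2.53 ± 0.39. Of these, Tnfaip8l1 kept its call without each library. Spef1 lost it without WT replicate 3 (adjusted p = 0.052), Pak6 without any of the 6 and Aif1l without any other than WT replicate 2.

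Of the 10 largest falls, 5 followed the macrophage markers in WT replicate 1. Cd5l, a macrophage-secreted protein, was at 346, 61.7 and 6.65 CPM in WT and at 0.0515, 0.0315 and 0.0335 CPM in Mettl3KO (adjusted p = 0.0084). Cd209f, a C-type lectin, was at 94.2, 7.86 and 1.40 CPM in WT and at 0 in all Mettl3KO libraries, at least 1154-fold lower when the Mettl3KO group is set to 3 counts in all. Abcg3, Emr4 and Col14a1 also had their highest value, 74.0, 64.7 and 51.2 CPM, in WT replicate 1. Without that library, Cd5l (adjusted p = 0.033) and Abcg3 (0.046) stayed past the threshold, and Cd209f (0.16), Emr4 (0.21) and Col14a1 (0.2) did not. Cd5l also lost its call without Mettl3KO replicate 1 (0.061), Emr4 without any Mettl3KO replicate, and Cd209f and Col14a1 without any of the 6 libraries. With libraries weighted by quality in limma voom, all 5 lost their calls. The adjusted p by that test was 0.23 for Cd5l, 0.056 for Abcg3, 0.15 for Cd209f, 0.066 for Emr4 and 0.055 for Col14a1. The part of admixed cells in these falls was not tested. The other large falls did not have their highest value in that library except Hcar2, a niacin receptor (18.1, 7.02 and 7.06 CPM in WT, 0.599 to 1.24 CPM in Mettl3KO). The chemokine Ccl3 was at 40.3, 63.0 and 38.2 CPM in WT and at 4.09, 5.32 and 2.51 CPM in Mettl3KO (-3.57 ± 0.53, adjusted p = 0.0012). Slc35d3, a gene needed for platelet dense granules, fell with -3.81 ± 0.77, Eaf2 with -3.50 ± 0.82 and the progesterone receptor gene Pgr with -3.50 ± 0.92. Ccl3 kept its call without each library, Slc35d3 lost it without Mettl3KO replicate 1 or 2, Hcar2 without WT replicate 1 or any Mettl3KO replicate, Eaf2 without any library other than WT replicate 1, and Pgr without any of the 6.

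Genes that rose had 1 or 2 exons more often than all tested genes, given here as a description with no test. In 1 GENCODE transcript for each protein-coding gene, 49 of 221 risen genes (22.2%) had 1 or 2 exons, against 9 of 136 fallen genes (6.62%) and 7.91% of 13775 tested genes with a transcript. The median was 5 exons among risen, 8.5 among fallen and 9 among all tested genes. Median spliced length was 2262, 2488 and 2916 bases. By exon class, 4.50% of genes with 1 or 2 exons and 2.40% of those with 3 to 5 rose, and 0.935% to 1.20% of those with more. Leaving out each MPP2 library gave 22.1% to 32.9% of risen genes with 1 or 2 exons, and DESeq2, with 510 risen genes, gave 17.2%. Genes with 1 or 2 exons had a median level of 6.98 CPM, against 16.99 to 29.9 CPM in the other classes, and the part of level in these shares was not tested. Of the genes that rose in HSC 19.4% had 1 or 2 exons. For genes that rose in MPP1 the share was 12.1% and in MPP4 9.74%. Fallen genes had a lower share than risen genes in HSC and MPP1, but a higher one in MPP4 (10.4%). The median of risen genes was 5 exons in HSC, 9 in MPP1 and 10 in MPP4, against 9 among all tested genes. Among genes that rose in LK, an assay that counts molecular identifiers, 11.3% had 1 or 2 exons, against 7.47% of all tested there.

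**Figure D1:**
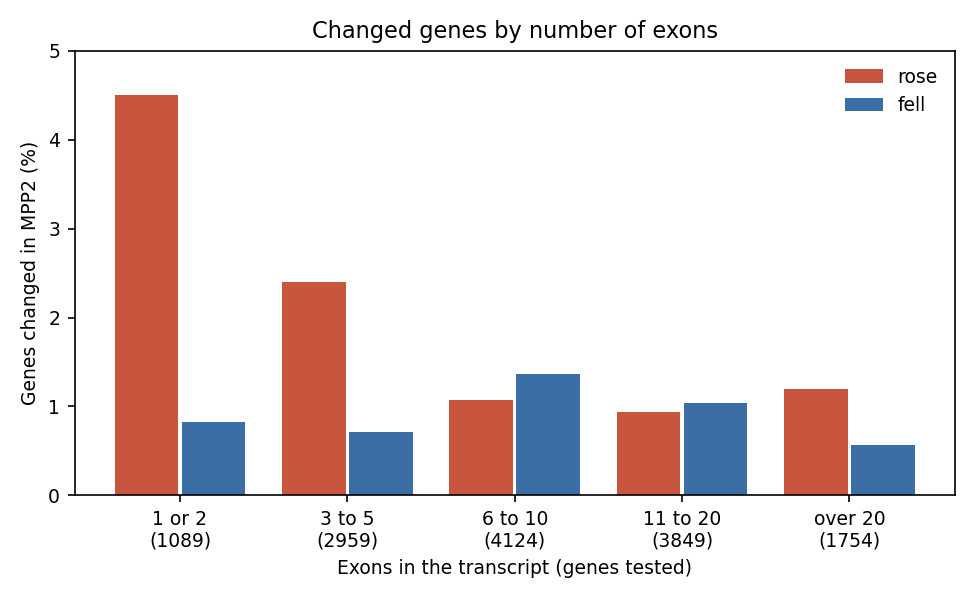
Share of tested genes that rose or fell in MPP2 (vertical axis, percent) by number of exons of the transcript (horizontal axis, with genes tested in parentheses). The share that rose is 4.50% at 1 or 2 exons and 0.935% to 1.20% above 5 exons, while the share that fell stays between 0.570% and 1.36%.

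The m6A consensus letters were also counted. GGACT, searched on the transcript strand within 100 bases of the first base of the stop codon, was present in 75 of 221 risen transcripts (33.9%), 27 of 136 fallen (19.9%) and 24.8% of all tested. Leaving out 1 library gave 28.6% to 37.4% of risen and 14.9% to 28.8% of fallen transcripts, ranges that overlap, and without WT replicate 3 the shares were 24 of 80 risen and 19 of 66 fallen. DESeq2 gave 28.9% and 21.7%. The median density of GGACT over the whole transcript was 1.29, 1.06 and 1.07 per kilobase. These are matches of letters, and no m6A was measured here. The sites below are those nearest the stop codon. The risen genes have the smallest p-values among those with 1 or 2 exons and GGACT within 100 bases of the stop codon. They are followed by the 2 fallen genes with such a site that had the smallest p-values. All were thus chosen for holding the motif. The sites are shown as examples of it in genes with few exons and in genes that fell. Each line runs 5′ to 3′ on the transcript strand, from the GENCODE vM21 transcript, with GGACT in capitals.
Mfsd5: ggcagtggcaGGACTcttcaccgtg
Chst12: acctgctcagGGACTgagcccccag
Rbmxl1: aactacccaaGGACTactaaaagaa
Phlda3: cagagtcttgGGACTgggacccttg
Ddx28: aagccttccaGGACTagcatcttca
Rrs1: tgaaaagctgGGACTgtactaaaag
Stxbp4: agagtgaagaGGACTgtcccagaga
Klk8: tggacaacagGGACTgatcctggtg
Mfsd5 (15:102279454-102281754, plus strand, 2 exons) has its site 78 bases before the stop codon and was at 83.4, 60.6 and 64.6 CPM in WT and at 208, 149 and 201 CPM in Mettl3KO. Chst12 (5:140505550-140525724, plus strand, 2 exons), a carbohydrate sulfotransferase, has its site across the stop codon and rose from 80.4, 92.6 and 113 CPM to 213, 174 and 185 CPM (log2 fold change 1.00 ± 0.16, adjusted p = 0.0016). In Rrs1 (1:9545408-9547455, plus strand, 1 exon), a ribosome biogenesis factor, the site starts 36 bases after the first base of the stop codon. The RNA helicase gene Ddx28 has 1 exon and rose with 1.13 ± 0.21, and Rbmxl1, a retrogene copy of Rbmx, has 2 exons and rose with 0.92 ± 0.15. Its parent Rbmx (9 exons) fell, from 148, 111 and 154 CPM to 66.6, 47.4 and 64.8 CPM (-1.21 ± 0.21, adjusted p = 0.0046). The copies share sequence, so how reads were split between them is uncertain. Stxbp4 (11:90476492-90638084, minus strand), which fell, has 18 exons and 8 GGACT in its transcript. Klk8, a secreted serine protease, has 5 exons and fell with -2.56 ± 0.41 (adjusted p = 0.0022).

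Among genes of the m6A machinery, Rbm15 and Ythdc1 rose, and the only called fall was that of Mettl3, the targeted gene. Of 9 tested writer genes, Rbm15 rose and Mettl3 fell, where 1.51% of all genes tested rose and 0.965% fell. Rbm15, an adaptor that brings the complex to RNA, was at 8.04, 13.1 and 12.1 CPM in WT and at 39.4, 31.1 and 39.4 CPM in Mettl3KO, with no overlap (log2 fold change 1.72 ± 0.26, adjusted p = 0.0013). Of 11 tested readers and erasers, the nuclear reader gene Ythdc1 rose, from 52.4, 66.9 and 49.8 CPM to 119, 124 and 110 CPM (1.06 ± 0.17, adjusted p = 0.0022). Both kept their calls without each library. The 2 lists had medians of 0.28 and 0.15, against -0.02 over all genes tested. At an unadjusted p under 0.05 there were 5 of the 9 writers and 3 of the 11 readers and erasers, against 2505 of 15545. Mettl14, the partner of METTL3, had 0.04 (adjusted p = 0.96).

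**Figure D2:**
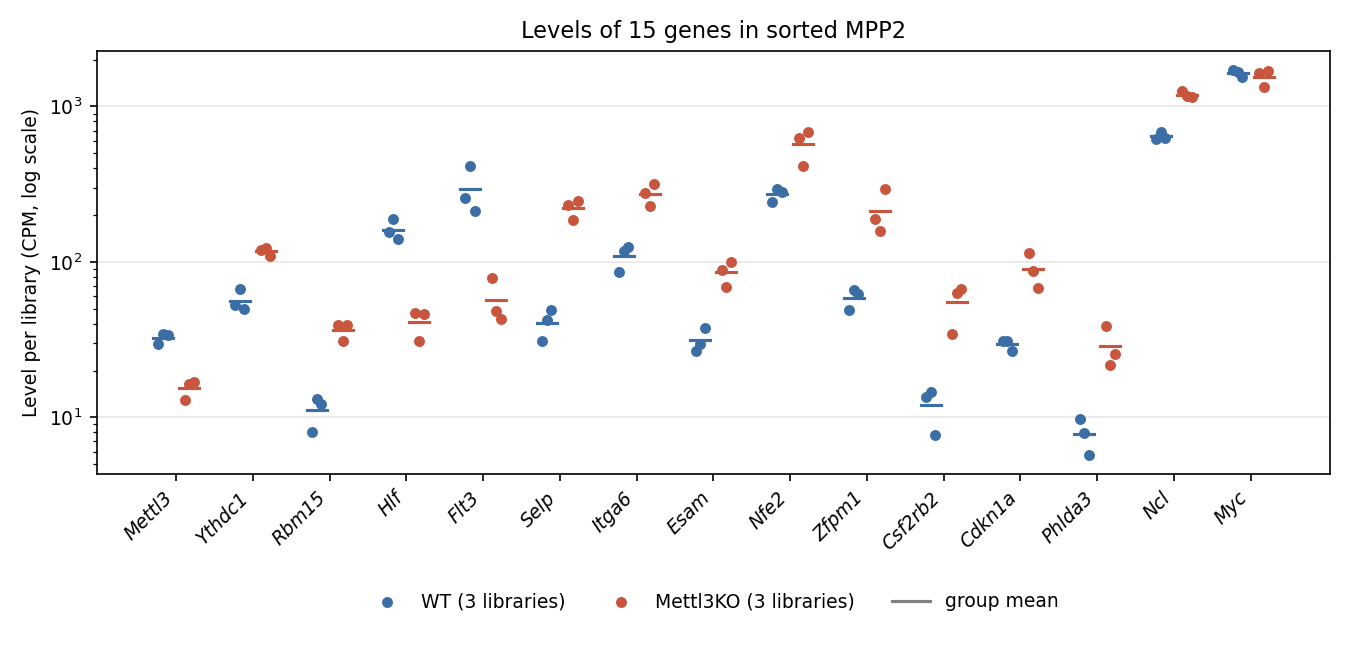
Levels of 15 genes (vertical axis, CPM on a log scale) in the 3 WT and 3 Mettl3KO MPP2 libraries, with 1 point per library and a line at each group mean. The WT and Mettl3KO points do not overlap for any gene shown except Myc, the only gene shown that was not called in MPP2. Of the 384 called genes, 383 have groups that do not overlap, against 26.6% of all genes tested.

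Stem cell genes changed in both directions. Of 25 HSC identity genes, 2 rose and 2 fell, where 1.51% of all genes tested rose and 0.965% fell. Their median was 0.14, and 13 had an unadjusted p under 0.05, as did 2505 of the 15545 genes tested. Hlf (11:90336536-90390895, minus strand), a transcription factor of stem cells, was at 155, 188 and 141 CPM in WT and at 46.9, 31.0 and 46.1 CPM in Mettl3KO (-1.96 ± 0.22 in log2 units, adjusted p = 7.9e-05). Esam, an adhesion molecule used as a stem cell marker, rose from 26.6, 29.6 and 37.8 CPM to 88.9, 69.1 and 101 CPM (1.46 ± 0.25, adjusted p = 0.0039). Ctnnal1 (alpha-catulin) rose with 1.70 ± 0.34. Hlf and Esam kept their calls without each library. Ctnnal1 lost it without WT replicate 1 (adjusted p = 0.068). Of the genes of the sort and of stem and progenitor surface markers, Cd34 fell from 1138, 1221 and 1125 CPM to 611, 370 and 644 CPM (-1.10 ± 0.27, adjusted p = 0.031), a call kept when Mettl3KO replicate 3 was left out and lost without any other library. Kit had -0.40 ± 0.47 (adjusted p = 0.75) and Ly6a, which encodes Sca1, 0.14 ± 0.24 (adjusted p = 0.84).

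Zfpm1, Nfe2 and Tal1, regulators of the megakaryocyte and erythroid lineages, rose, while most genes of those lineages did not pass the test. Of 26 platelet and megakaryocyte genes, 3 rose and 1 fell, and of 28 erythroid genes 3 rose and 0 fell. Over all genes tested, 1.51% rose and 0.965% fell. At an unadjusted p under 0.05 there were 10 platelet and megakaryocyte genes and 12 erythroid genes. DESeq2 called 4 erythroid genes higher and 4 lower. Zfpm1 (FOG1, the cofactor of GATA1) was at 48.8, 65.9 and 62.1 CPM in WT and at 189, 158 and 293 CPM in Mettl3KO (1.86 ± 0.33 in log2 units, adjusted p = 0.0050). Nfe2, a transcription factor of platelet formation, rose from 242, 296 and 282 CPM to 623, 415 and 681 CPM (1.07 ± 0.20, adjusted p = 0.0060). Zfpm1 and Nfe2 stand in both lists. Tal1 rose with 1.05 ± 0.25 (adjusted p = 0.026) and lost the call without any library other than Mettl3KO replicate 2. Selp, P-selectin of platelets and endothelium (1:164115264-164150026, plus strand), was at 31.1, 42.0 and 49.0 CPM in WT and at 232, 187 and 246 CPM in Mettl3KO (2.44 ± 0.30, adjusted p = 1.9e-04). The erythroid median was -0.83 and 21 of the 28 were below 0, so its median and its called members have opposite signs. Car1, an erythroid carbonic anhydrase, was at 415, 265 and 361 CPM in WT and at 49.0, 112 and 93.9 CPM in Mettl3KO (adjusted p = 0.081). Klf1, an erythroid master regulator, was at 34.8, 32.1 and 28.0 CPM and at 6.85, 16.7 and 11.3 CPM (adjusted p = 0.19). The platelet chemokine gene Pf4 was at 49.0, 99.2 and 326 CPM and at 24.5, 41.6 and 23.1 CPM (adjusted p = 0.090). Of 22 granulocyte and monocyte genes and 14 mast cell and basophil genes, 0 passed, with 2 and 4 at an unadjusted p under 0.05. DESeq2 also gave 0 for both. Among them, Gata2 had 0.76 ± 0.29 (adjusted p = 0.18) and Cebpa -0.95 ± 0.37 (adjusted p = 0.2).

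Flt3 and 3 other lymphoid priming genes fell. Of 17 tested, 4 fell and 0 rose, where 0.965% of all genes tested fell and 1.51% rose. Of the 17, 15 were below 0, with a median of -0.83. Flt3, the cytokine receptor that marks lymphoid-primed progenitors, was at 258, 415 and 211 CPM in WT and at 79.0, 48.4 and 43.0 CPM in Mettl3KO (-2.37 ± 0.43 in log2 units, adjusted p = 0.0050). Flt3 kept its call without each library. Notch1 fell with -1.14 ± 0.30 (adjusted p = 0.049), the cytokine subunit gene Il12a with -1.24 ± 0.31 and Wfdc17 with -2.14 ± 0.52. Each of these 3 lost its call in 5 or 6 of the 6 library omissions. In WT MPP4 Flt3 was at 398 to 413 CPM, below WT MPP2 replicate 2 and above the other WT MPP2 libraries. Slamf1, a gene of the MPP2 gate, had higher values in the Mettl3KO libraries, as given above, and its part in these falls was not tested. Among B cell genes, 7 of 14 were above 0. Vpreb1, the surrogate light chain, rose from 14.2, 13.2 and 11.4 CPM to 45.9, 55.9 and 37.3 CPM (1.84 ± 0.44, adjusted p = 0.028), the 1 called of the 14, and lost the call without any library other than Mettl3KO replicate 3. Of 16 T and NK cell genes, the kinase gene Lck fell (-1.49 ± 0.36) and Thy1 rose (2.38 ± 0.55), calls lost in 5 and 6 of the 6 library omissions. Of 15 macrophage genes, Cd5l and Cd163 fell, and Cd163 lost its call without WT replicate 1 (adjusted p = 0.066) or Mettl3KO replicate 1 (0.055). Neutrophil, dendritic cell and stroma lists had 0 calls of 11, 12 and 11 tested, with 0, 1 and 1 at an unadjusted p under 0.05. Under DESeq2 the stroma list had 1 higher and 1 lower gene, and the neutrophil and dendritic cell lists 0. Of 14 endothelial genes, Esam rose and Emcn fell.

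Adhesion and cytokine receptor genes changed in both directions. Of 26 adhesion genes, Selp, Esam, Itga6 and F11r rose, and Emcn and Cd44 fell. Over all genes tested, 1.51% rose and 0.965% fell. Itga6, an integrin subunit, was at 85.5, 118 and 125 CPM in WT and at 277, 230 and 318 CPM in Mettl3KO (1.33 ± 0.19 in log2 units, adjusted p = 9.0e-04). F11r (JAM-A) rose with 1.02 ± 0.22, and Emcn (endomucin) fell from 24.02, 28.9 and 22.9 CPM to 7.11, 6.87 and 2.68 CPM (-2.19 ± 0.43, adjusted p = 0.0090). Cd44, the hyaluronan receptor, fell with -0.62 ± 0.15. Itga6 and Emcn kept their calls without each library, Cd44 lost it without any of the 6, and F11r lost it without WT replicate 1 or 3 or Mettl3KO replicate 1 or 3. Of 30 cytokine receptors, 2 rose and 3 fell, with a median of -0.33. The beta chain genes of the IL-3 family receptors rose together: Csf2rb2 from 13.5, 14.7 and 7.72 CPM to 34.4, 62.9 and 67.4 CPM (adjusted p = 0.0052) and Csf2rb with 1.27 ± 0.29. These genes are near copies, and reads shared between them could not be assigned with certainty. Il1r1 fell with -1.28 ± 0.29, beside Flt3. Of 14 genes of SOCS and JAK-STAT feedback, Socs2 (1.80 ± 0.42) and the kinase gene Pim2 (0.97 ± 0.21) rose. Csf2rb, Il1r1, Socs2 and Pim2 lost their calls in 4 to 6 of the 6 library omissions.

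Of 40 MYC targets, 5 rose, where 1.51% of all genes tested rose, and 0 fell, with 33 above 0 and a median of 0.21. Ncl (nucleolin) went from 613, 689 and 630 CPM to 1264, 1168 and 1144 CPM (0.89 ± 0.13, adjusted p = 9.5e-04). The others were Rrs1 (0.79 ± 0.15), Ddx21 (0.67 ± 0.15), Hspd1 (0.53 ± 0.12) and Apex1 (0.90 ± 0.24, adjusted p = 0.049). Ncl kept its call without each library, and 1 to 4 of the 40 stayed called when a library was left out. Myc itself was at 1715, 1659 and 1535 CPM in WT and at 1635, 1326 and 1699 CPM in Mettl3KO, overlapping ranges (-0.08 ± 0.20, adjusted p = 0.91). Of the 12 genes of the MYC network 0 were called and 4 had an unadjusted p under 0.05, among them Mycn (0.94 ± 0.27, adjusted p = 0.073). DESeq2 called 3 of the 12. All 59 ribosomal protein genes were above 0 with a median of 0.38, yet 0 passed and 0 had an unadjusted p under 0.05. Their sums were 16920 to 19673 CPM in WT, 26082 and 25115 CPM in Mettl3KO replicates 1 and 2, and 16896 CPM in Mettl3KO replicate 3, so the groups overlapped.

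Cdkn1a and Phlda3 rose, 2 of 27 p53 targets tested, where 1.51% of all genes tested rose. Cdkn1a, the cell cycle inhibitor p21, was at 30.9, 30.9 and 26.7 CPM in WT and at 114, 87.4 and 68.3 CPM in Mettl3KO (1.60 ± 0.34 in log2 units, adjusted p = 0.015). Phlda3, an inhibitor of AKT, rose from 9.78, 7.94 and 5.75 CPM to 38.8, 21.7 and 25.7 CPM (1.88 ± 0.33, adjusted p = 0.0039). Phlda3 kept its call without each library, and Cdkn1a lost it without any WT replicate or without Mettl3KO replicate 1. Of 28 G1/S and replication genes, the flap endonuclease gene Fen1 rose (0.71 ± 0.13), though not without WT replicate 1 (adjusted p = 0.054). Of 25 G2/M genes 0 were called by either tool, with 2 at an unadjusted p under 0.05, and Mki67 had 0.87 ± 0.36 (adjusted p = 0.22). In the BCL2 family Bcl2l1 (BCL-XL) rose with 0.98 ± 0.20 and Bcl2 fell with -0.86 ± 0.20, 2 of 17 tested, each lost in 3 of the 6 library omissions.

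Of 30 interferon-stimulated genes 0 were called and 8 had an unadjusted p under 0.05, with a median of -0.03, and DESeq2 called 2. Ifit1 had 1.02 ± 0.29 (adjusted p = 0.067) and Ifi44 -1.39 ± 0.38 (adjusted p = 0.056). Of 18 genes for sensing and editing of double-stranded RNA 0 were called and 5 had an unadjusted p under 0.05, and DESeq2 called 2 as lower. Dhx58 had -0.93 ± 0.28 (adjusted p = 0.081) and Ifih1 -0.94 ± 0.30 (adjusted p = 0.11). Of 15 interferon-inducible GTPases, Igtp rose from 41.6, 43.3 and 41.6 CPM to 88.0, 70.4 and 129 CPM (1.18 ± 0.27, adjusted p = 0.020). Irgm1 rose with 1.03 ± 0.26 and Gbp8 fell with -2.53 ± 0.57, where 1.51% of all genes tested rose and 0.965% fell. Igtp and Irgm1 lost their calls in 5 of the 6 library omissions and Gbp8 in 3. Of 25 genes of the integrated stress and unfolded protein response, Xbp1 fell (-1.01 ± 0.26, adjusted p = 0.042), a call lost in 5 of the 6 library omissions. Of 12 heat shock genes 0 were called, also by DESeq2, and 2 had an unadjusted p under 0.05. Immediate early genes had 0 of 23 called, 6 at an unadjusted p under 0.05 and a median of -1.23, and DESeq2 called 1. Their sum was 2453, 7174 and 10526 CPM in WT replicates 1 to 3 and 2149 to 3621 CPM in Mettl3KO, so WT replicate 1 lay within the Mettl3KO range.

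**Figure D3:**
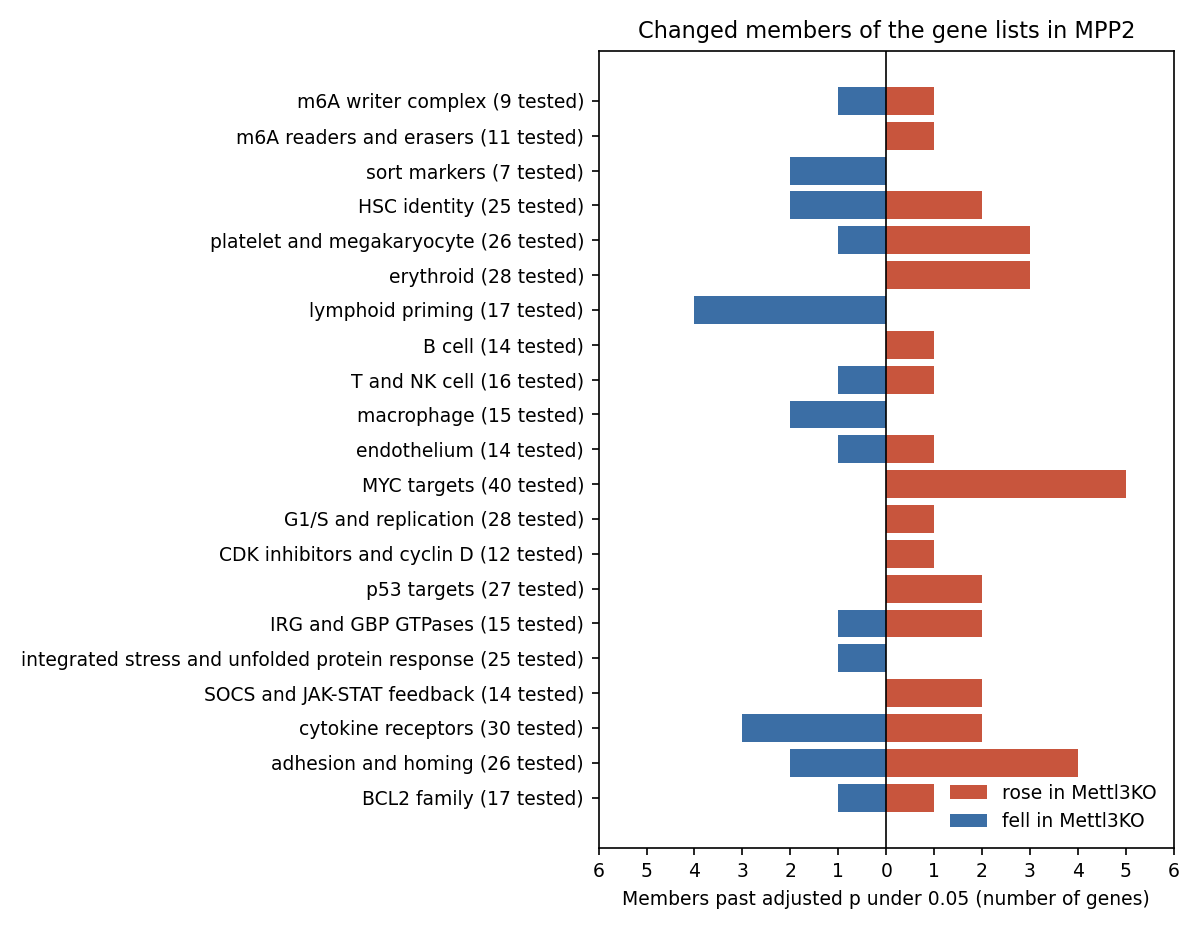
Number of members of each gene list that rose (right) or fell (left) in MPP2 at an adjusted p under 0.05, for the lists with at least 1 call and with the number of members tested in parentheses. MYC targets have 5 rises and 0 falls, and lymphoid priming genes have 4 falls and 0 rises. Over all genes tested, 1.51% rose and 0.965% fell.

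The effect in MPP2 was set against that in the other sorted populations, which share no library with it. The labels used here do not say whether populations came from the same mice. Same-numbered WT libraries of MPP2 deviated together with those of HSC (r 0.17 to 0.34), MPP1 (0.13 to 0.24) and MPP4 (0.18 to 0.45). In Mettl3KO the same-numbered r was 0.08 to 0.42 with MPP1 and 0.18 to 0.21 with MPP4. With HSC it was -0.24, 0.38 and -0.01 for replicates 1 to 3. The highest r with HSC in Mettl3KO, 0.51, was between MPP2 replicate 3 and HSC replicate 1. The overlaps below therefore cannot be taken as between independent samples. In HSC 956 genes (6.15%) changed, 3.66% upward and 2.49% downward. In MPP1 1342 (8.63%) changed, 4.74% upward and 3.89% downward, and in MPP4 487 (3.13%), 1.03% upward and 2.10% downward. Of the 234 MPP2 rises, 179 also rose in HSC (76.5% of them, 31.5% of the HSC rises), 161 in MPP1 (68.8% and 21.8%) and 17 in MPP4 (7.26% and 10.6%). Of the 150 falls, 86 also fell in HSC (57.3% of them, 22.2% of the HSC falls), 81 in MPP1 (54.0% and 13.4%) and 45 in MPP4 (13.8% of the MPP4 falls). Changes in the opposite direction numbered 0 in HSC, 2 in MPP1 and 9 in MPP4. The 234 genes that rose in MPP2 had a median log2 fold change of 1.12 there, 1.17 in HSC, 0.92 in MPP1 and 0.17 in MPP4. The 150 that fell had -1.47, -1.21, -0.92 and -0.79. Hlf fell and Selp rose in all 4 populations. Mettl3 itself had -1.35 ± 0.18 in HSC, -1.49 ± 0.18 in MPP1, -1.08 ± 0.18 in MPP2 and -0.77 ± 0.18 in MPP4. The test of the difference did not call its MPP2 and MPP4 effects unlike (adjusted p = 0.68). The part of the Mettl3 loss in these overlaps was not tested.

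The test of the difference, fitted with no replicate block, found the MPP2 effect unlike the MPP4 effect for 64 genes (0.412%). The fit with replicate numbers within each genotype as a block found 117. For 45 of the 64 the effect was higher in MPP2, and for 53 the estimates had opposite signs. There were 9 genes called in both populations in opposite directions: Esam, F11r, Nfix, Npdc1, Rab38, Rhbdf1, Tcf15 and Zfp467 rose in MPP2 and fell in MPP4, and Ablim1 did the reverse. Rhbdf1, an inactive rhomboid protein, was at 4.47, 6.29 and 4.57 CPM in WT MPP2 and at 28.0, 17.9 and 28.5 CPM in Mettl3KO MPP2. In MPP4 it was at 4.16, 11.02 and 6.80 CPM in WT and at 2.31, 2.62 and 2.201 CPM in Mettl3KO (difference of log2 fold changes 3.90 ± 0.54, adjusted p = 0.0029). Starting levels of Rhbdf1 in the WT libraries overlapped, and the genotypes then lay on opposite sides of them. Npdc1, a neural proliferation gene, had a difference of 3.28 ± 0.46 (adjusted p = 0.0029). Nfix, a transcription factor of stem cell maintenance, was at 189, 223 and 187 CPM in WT and at 373, 300 and 347 CPM in Mettl3KO in MPP2. In MPP4 the WT libraries had 250.3, 225 and 264 CPM, all above the Mettl3KO values of 144, 95.6 and 109 CPM (difference 1.86 ± 0.24, adjusted p = 0.0029). Esam had 22.3, 16.7 and 15.7 CPM in WT MPP4 and 7.12, 9.30 and 10.3 CPM in Mettl3KO MPP4 (difference 2.49 ± 0.36, adjusted p = 0.0033). Sorbs3, a vinculin-binding adaptor, was not called in MPP2 (0.32 ± 0.18, adjusted p = 0.38) and fell in MPP4 (-1.40 ± 0.18). These genes and Rab38 and F11r kept the difference under all 18 alternatives. Within MPP2 alone, Nfix lost its call in 4 of the 6 omissions of an MPP2 library, Npdc1 in 3, Rab38 in 5 and F11r in 4, while Esam and Rhbdf1 kept it in all 6. Serpina3g, Fam212a, Tpst2, Itga6, Ythdc1, Nfe2, Mdk, Grrp1 and Pim2 rose in MPP2 more than in MPP4, by 1.20 to 3.55 on the log2 scale, and each lost that call in 4 to 12 of the alternatives.

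**Figure D4:**
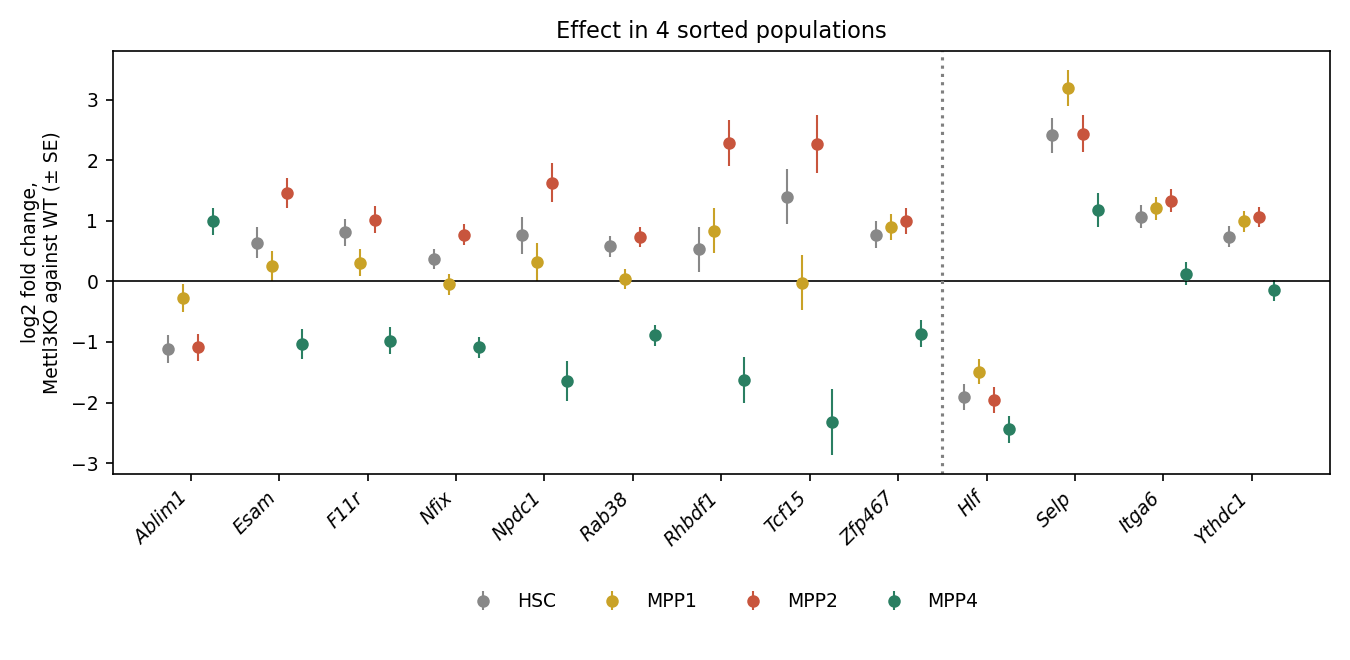
Log2 fold change of Mettl3KO against WT (vertical axis, points, with bars of 1 SE) in HSC, MPP1, MPP2 and MPP4. To the left of the dotted line are the 9 genes called in MPP2 and MPP4 in opposite directions, where the MPP4 point lies across 0 from the MPP2 point. To the right are Hlf, Selp, Itga6 and Ythdc1.

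At an adjusted p under 0.05, few genes differed in effect from the stem cell end. The MPP2 and MPP1 effects differed for 11 genes (0.0708%) and the MPP2 and HSC effects for 1 (0.00643%). At an unadjusted p under 0.05 there were 1501 genes for MPP1 and 557 for HSC, against 1916 for MPP4. DESeq2 gave 189 for MPP1 and 70 for HSC, against 495 for MPP4. The MPP1 difference included the B cell genes Cd79a, Mzb1 and Pou2af1. Cd79a, which encodes a signalling chain of that receptor complex on B cells, was at 1.77, 2.71 and 1.21 CPM in WT MPP1 and at 27.2, 22.3 and 29.8 CPM in Mettl3KO MPP1. In MPP2 it was at 39.4, 46.3 and 45.9 CPM and at 61.2, 71.8 and 49.4 CPM, so WT MPP2 already lay above Mettl3KO MPP1 (difference -3.33 ± 0.43). Mzb1, an endoplasmic reticulum protein of B lineage cells, differed in the same sense (-4.76 ± 0.60). Pou2af1, a B cell coactivator, was at 0.0329, 0.0488 and 0 CPM in WT MPP1 and at 3.06, 0.304 and 2.79 CPM in Mettl3KO MPP1, against 11.0033, 30.03 and 35.5 CPM and 13.4, 19.6 and 13.2 CPM in MPP2 (adjusted p of the difference 0.022). Cd79a, Mzb1 and Gcsam kept the difference from MPP1 without each library, and Pou2af1 and Gdf3 lost it in 6 of 12 omissions. Gdf3, a TGF-beta family ligand, fell in both, less in MPP2 (-1.52 ± 0.36) than in MPP1 (-4.52 ± 0.41). Gcsam was at 7.51, 15.5 and 18.7 CPM in WT MPP2 and at 7.75, 17.2 and 5.63 CPM in Mettl3KO MPP2. It was at 0 in all 3 Mettl3KO libraries of HSC and of MPP1 and at 3.04 to 6.29 CPM in WT there, a difference with adjusted p = 0.0017 against HSC and 8.4e-04 against MPP1. The chemokine receptor gene Ccr6 was at 1.62, 8.22 and 1.56 CPM in WT MPP2 and at 0 in Mettl3KO MPP2, at least 127-fold lower. In MPP1 it was at 0, 0 and 0.261 CPM in WT and at 10.02 to 11.8 CPM in Mettl3KO (adjusted p of the difference 0.022, lost without MPP2 WT replicate 2, any MPP2 Mettl3KO replicate or MPP1 WT replicate 1 or 2). Leaving out 1 library gave 3 to 27 genes for MPP1, with 27, 19 and 18 when Mettl3KO replicate 1, 2 or 3 of MPP1 was left out and 3 to 7 for the other libraries. For MPP4 the range was 13 to 108. It was 15, 38 and 18 without MPP2 WT replicate 1, 2 or 3, 15 without MPP2 Mettl3KO replicate 1, 16 and 13 without MPP4 WT replicate 2 or 3, and 108 and 16 without MPP4 Mettl3KO replicate 1 or 3.

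The LK cells gave a second assay on other libraries. UMI counts of 24396 cells were summed per library (303 barcodes occurred in more than 1 library, and no doublets were removed here), and 2934 of 13071 genes (22.4%) changed, 1794 upward (13.7%) and 1140 downward (8.72%). Of the 234 MPP2 rises, 217 were tested in LK and 166 rose there too (76.5% of those tested, 9.25% of the LK rises). Of the 150 falls, 130 were tested and 29 fell (22.3% of those tested, 2.54% of the LK falls). For rises 76.5% thus stands against 13.7% of all genes, and for falls 22.3% against 8.72%. With a single MPP2 library left out, the genes shared in the same direction numbered 66 without Mettl3KO replicate 1, 89, 98 and 77 without WT replicates 1 to 3, and 143 and 122 without Mettl3KO replicates 2 and 3, against 195 with all libraries. Selp was at 3.25, 3.04 and 4.33 CPM in WT LK and at 29.3, 19.7 and 19.6 CPM in Mettl3KO LK (log2 fold change 2.70 ± 0.20, adjusted p = 3.5e-04). Serpina3g was at 26.7, 30.1 and 25.9 CPM and at 250.1, 161 and 206 CPM. Mdk (3.49 ± 0.28), Grrp1 (4.87 ± 0.43), Gimap9, a GTPase of lymphocytes (1.63 ± 0.12), Ahdc1 (1.51 ± 0.16), Tpst2, a tyrosylprotein sulfotransferase (1.13 ± 0.15), and Itga6 (1.07 ± 0.13) also rose in LK. Hlf was at 11.4, 10.8 and 12.7 CPM in WT LK and at 10.99, 7.07 and 6.97 CPM in Mettl3KO LK (adjusted p = 0.095), and Gpr171 (-0.09 ± 0.12) and Flt3 (-0.17 ± 0.19) were not called. The 9 genes that fell in MPP2 and rose in LK were Abi3, Ablim1, Dusp22, Il12a, Lax1, Lck, Sdc1, Tbc1d10c and Tspan13. LK is a mixture, and Ly6a, a gene of the MPP2 gate, was at 8.70 to 15.6 CPM in its WT libraries and at 48.1 to 51.9 CPM in its Mettl3KO libraries. The part of a changed cell mixture in the LK values was not tested.

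**Figure D5:**
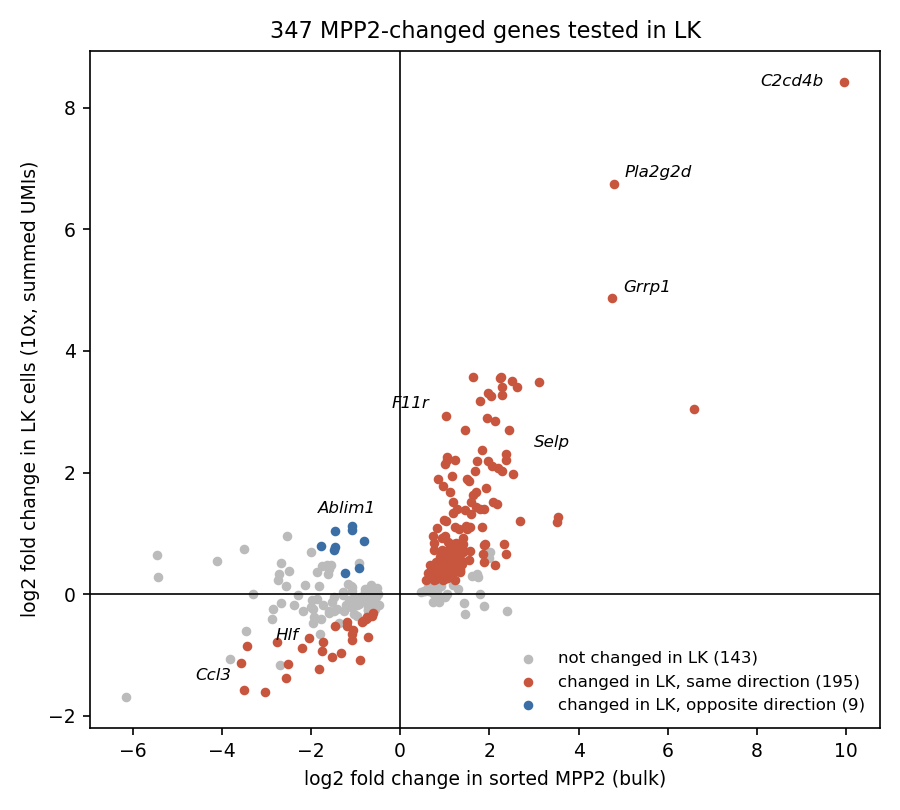
Log2 fold change of Mettl3KO against WT in sorted MPP2 (horizontal axis) and in LK cells (vertical axis) for the 347 genes that changed in MPP2 and were tested in LK. Of them 195 changed in LK in the same direction and 9 in the opposite direction, all of these with falls in MPP2 and rises in LK.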

How the data were processed

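The deposited bulk table, named as FPKM, held whole numbers with unequal totals, so its values were used as counts that the authors had not normalized. The deposited 10x values were counts of UMIs per cell. The submitters' processing notes name Bowtie, TopHat, Cell Ranger 2.2, mm10 and GRCh37 with no role. No source used here names the counting tool or its use of strand, so overlapping and near-identical genes are uncertain. In 166 genes with a mean above 100, every count was even, 5 of them called in MPP2; an alternative halved these.

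All 24 bulk libraries were fitted in edgeR 4.0.16 (R 4.3.3) with filterByExpr, TMM and 8 group means. A gene changed at a Benjamini-Hochberg adjusted p under 0.05. Values after ± are standard errors and n is 3 mice a group. Per group, a floor of 3 counts served genes at 0. PCR reads are not independent molecules, so floors and intervals cover counting error only. LK UMIs were summed over cells with at most 10% mitochondrial UMIs. In simulated data for MPP2 (15106 genes) 34% of 2-fold and 83% of 4-fold changes were recovered, with 3 false among 120 calls. Exons and motifs came from GENCODE vM21 (GRCm38).

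Members and lists were chosen with earlier results of these data known. Named genes were the sort and targeted genes, the 10 largest rises and falls at 5 CPM or more whose groups did not overlap, the smallest p-values in each direction and contrast, up to 5 called members per list and genes shared with LK. Klk8, Chst12, Rbmxl1, Ddx28, Tcf15, Zfp467, Ablim1, Rbmx, Cd44, Car1, Klf1, Pf4 and Mettl14, and the genes opposite in LK, were chosen after their values were seen. Same-numbered MPP2 and MPP4 libraries deviated together within both genotypes (r 0.18 to 0.45). The differences given came from the fit with no replicate block, and a fit with those numbers as a block was an alternative. Same-numbered WT and Mettl3KO libraries of MPP2 did not deviate together (r -0.09 to 0.08). Alternatives were DESeq2 1.42.0, limma 3.58.1 quality weights, other scalings, filters, samples and replicate blocks. The values of 1 gene counted in the lists are not reported here.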

Additional observations from a re-analysis of the deposited data

Results flagged for a closer look

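Each result here is a gene whose Mettl3KO effect differed between MPP2 and another population by the test of the difference itself, with the MPP2 effect minus the other given in log2 units. Against MPP4 the differences were 2.49 for Esam, 2.00 for F11r, 1.76 for Fam212a, 3.55 for Grrp1, 1.20 for Itga6 and 3.10 for Mdk. They were 1.87 for Mycn, 1.48 for Nfe2, 1.86 for Nfix, 3.28 for Npdc1, 1.48 for Pim2 and 1.62 for Rab38. They were 3.90 for Rhbdf1, 1.59 for Serpina3g, 1.72 for Sorbs3, 1.61 for Tpst2 and 1.21 for Ythdc1. Against MPP1 they were -3.33 for Cd79a, 2.99 for Gdf3, -4.76 for Mzb1 and -6.87 for Pou2af1. The size for Pou2af1 is uncertain, because its WT MPP1 libraries were at 0.0329, 0.0488 and 0 CPM. Ccr6 and Gcsam are at 0 in a group, so only the adjusted p is given, 0.022 for Ccr6 against MPP1 and 8.4e-04 for Gcsam against MPP1. Gcsam also differed from HSC (adjusted p = 0.0017). Of the 17 differences from MPP4, 7 were kept under every alternative.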

How the results depend on the processing

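With 3 mice a group and a spread shared by 8 groups, 2-fold changes were often missed, so genes not called cannot be taken as equal. Of 78 named genes called in MPP2, 32 kept the call under all 14 alternatives, 26 lost it only when a library was left out, and 20 under at least 1 fit of all libraries. None of the 78 reversed. Fewer samples are fitted when a library is left out; for the other changes the cause was not tested. DESeq2 called 1039 MPP2 genes and quality weights 1471, against 384. The 6 MPP2 libraries fitted alone gave 485, 294 upward and 191 downward. Calls lost in that fit included Bcl2, Cd163, Cd209f, Ddx21, F11r, Gbp8, Hspd1, Il1r1, Notch1, Pim2 and Xbp1 (adjusted p 0.051 to 0.067). For the difference from HSC, DESeq2 gave 70, quality weights 0 and the 12 libraries alone 0, from MPP1 189, 1 and 5, and from MPP4 495, 674 and 260. Leaving out 1 library gave 109 to 220 MPP2 genes, -1.15 to -0.97 for Mettl3, 1 to 2, 3 to 27 and 13 to 108 genes for the differences from HSC, MPP1 and MPP4, 1887 to 2614 LK genes and 66 to 186 shared with LK. Without 1 library Ly6a, never called, ranged from -0.06 to 0.39 (-0.06 without WT replicate 1, -0.00 without Mettl3KO replicate 1) and Myc from -0.15 to 0.03 (0.03 without Mettl3KO replicate 2). The replicate block gave 378 MPP2 genes, -1.08 for Mettl3, 1, 12 and 117 genes for the 3 differences, 2055 in LK and 165 shared with LK. Under it Aif1l, Notch1, Pak6 and Pgr lost their calls in MPP2. Leaving out MPP2 libraries for the genes shared with LK, the gene lists and the exon shares was chosen after seeing the data.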
